A study of Mus musculus with 71 samples.

Results

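The 8 genes described here, Sis, Lct, Mgam, Treh, Slc5a1, Slc2a2, Slc2a5 and Khk, encode the brush border disaccharidases, the sugar transporters of the enterocyte and the first enzyme of fructose metabolism. They were chosen by name from the 24475 gene identifiers of 3 bulk RNA-sequencing tables, and each was found in every table. The tables hold whole small intestine and colon, intestinal epithelial cells (IECs), and sorted γδ intraepithelial lymphocytes (IELs, T cells that lie between the epithelial cells), from wild-type (WT) and Btnl2-KO mice. Btnl2 belongs to the butyrophilin-like family of epithelial surface proteins, and the comparison of genotypes asks what its loss changes in gut tissue, epithelium and IELs. The strain was C57BL/6 throughout.

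The mice labelled Btnl2-/- carried a LacZ reporter knocked in at the Btnl2 locus together with a selection cassette driven by the human ubiquitin promoter, so the loss is constitutive and present in every cell, and the controls were WT littermates housed with them. The IEC libraries came from mice labelled 7 weeks of age, with 3 WT and 2 Btnl2-KO libraries of the duodenum, 3 and 3 of the jejunum and 2 and 3 of the ileum. These segments are the first, middle and last of 3 equal lengths of the small intestine, and IECs are the cells that floated on top of a density gradient after the epithelium was detached with EDTA. The γδ IEL libraries came from mice labelled 10 weeks of age, with 4 WT libraries of each segment and 3, 4 and 3 Btnl2-KO libraries of duodenum, jejunum and ileum. Each of these was sorted as CD45+ TCRβ- TCRγδ+ cells from 2 pooled mice. By the study's methods the 3 segments came from the same pools, so IEL libraries of different segments share mice, and the labels do not say which. The tests between segments took these libraries as independent. IECs were isolated from the same 3 lengths of a small intestine, and whether their libraries share mice is not given in the labels. Whole tissue gave 7 WT and 7 Btnl2-KO libraries of the small intestine, and 6 WT and 7 Btnl2-KO libraries of the colon. The labels of all of these are marked YNG, read here as young, and give no age in weeks.

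Starch, sucrose, lactose and trehalose cannot cross the gut wall until they are cut to single sugars. Disaccharidases anchored in the brush border of the enterocyte do this: sucrase-isomaltase (Sis) cuts sucrose and the branch points of starch, maltase-glucoamylase (Mgam) cuts maltose and short starch chains, lactase (Lct) cuts milk sugar and trehalase (Treh) cuts the fungal and insect sugar trehalose. Glucose and galactose then enter with sodium through SGLT1 (Slc5a1), fructose enters through GLUT5 (Slc2a5), sugars leave towards the blood through GLUT2 (Slc2a2), and ketohexokinase (Khk) traps fructose inside the cell as its phosphate.

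The 250 bases before the start of a gene hold many of the sites at which enterocyte transcription factors are known to act. They are shown for 4 members that stood apart in the segment and tissue comparisons: Lct and Slc2a2, which had the largest drops along the small intestine, Mgam, which rose along it, and Sis, which had the largest difference between small intestine and colon. The sequences are RefSeq's, on build GRCm38.p6, read 5′ to 3′ on the strand of the gene. Lct lies at chr1:128328319-128328568 (minus strand), Mgam at chr6:40628581-40628830 (plus strand), Slc2a2 at chr3:28697653-28697902 (plus strand) and Sis at chr3:72967864-72968113 (minus strand). Capitals mark GATA motifs, spelled AGATAA or TGATAA on either strand, in the first 3, and the core of the HNF1 motif, spelled GTTAAT on either strand, in Sis.
Lct: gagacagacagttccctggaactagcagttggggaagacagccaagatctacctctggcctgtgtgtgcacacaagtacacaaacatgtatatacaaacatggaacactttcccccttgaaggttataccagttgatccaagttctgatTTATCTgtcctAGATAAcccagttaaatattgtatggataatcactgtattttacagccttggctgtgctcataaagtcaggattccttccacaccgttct
Mgam: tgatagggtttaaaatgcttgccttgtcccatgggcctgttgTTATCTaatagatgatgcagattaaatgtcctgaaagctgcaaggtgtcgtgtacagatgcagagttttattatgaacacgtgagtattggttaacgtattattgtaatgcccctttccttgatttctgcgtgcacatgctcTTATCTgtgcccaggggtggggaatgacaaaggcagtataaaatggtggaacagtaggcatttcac
Slc2a2: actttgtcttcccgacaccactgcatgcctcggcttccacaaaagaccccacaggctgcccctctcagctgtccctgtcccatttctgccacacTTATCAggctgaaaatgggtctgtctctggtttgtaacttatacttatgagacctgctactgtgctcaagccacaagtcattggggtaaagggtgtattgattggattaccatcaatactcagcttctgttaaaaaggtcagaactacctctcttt
Sis: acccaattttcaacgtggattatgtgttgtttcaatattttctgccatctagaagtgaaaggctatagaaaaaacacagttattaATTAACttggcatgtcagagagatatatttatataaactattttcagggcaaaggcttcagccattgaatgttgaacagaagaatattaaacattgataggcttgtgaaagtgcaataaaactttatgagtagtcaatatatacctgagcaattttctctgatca
Lct and Mgam held 2 GATA matches each and Slc2a2 held 1, while 16.6% of 32851 RefSeq promoters of this length held at least 1. The HNF1 core was found in Sis and in Khk, and in 6.43% of all promoters. The Khk window, chr5:30921309-30921558 (plus strand), runs past the listed start of that gene at 30921436. Its match lies past that start, inside the gene as listed. No GATA match was found for Sis, Treh, Slc5a1, Slc2a5 or Khk in these windows. The marked motifs do not overlap each other, and a match is a description of letters only. A CDX motif, spelled TTTAT or TTTAC on either strand, was also searched and is not marked. It had 4 matches in Sis, 3 in Lct, 2 in Mgam and 1 each in Slc2a2 and Slc5a1. At least 1 was found in 51.2% of promoters, and 1 of those in Lct overlaps a GATA match. GATA matches were found both in genes that fell (Lct, Slc2a2) and in the gene that rose (Mgam) along the small intestine.

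Library totals ran from 15397757 to 38258472 counts in IECs, from 13444958 to 30029485 in IELs and from 13619309 to 21708721 in tissue. Levels are CPM, each count scaled to the size of its library, after TMM scaling, a between-library correction of edgeR. Btnl2 itself was at 23.9 to 102.6 CPM in WT and 0.674 to 2.44 CPM in Btnl2-KO small intestine, and at 25.1 to 67.7 CPM in WT IECs. In Btnl2-KO IECs it was at 0.342 to 0.595 CPM except in the libraries 1003459 (labelled duodenum, 5.45 CPM) and 1003474 (labelled jejunum, 19.5 CPM). Segment markers went against the labels in 3 Btnl2-KO IEC libraries. The library labelled duodenum 1003459 held 220.3 CPM of the ileal bile acid binding protein Fabp6 and no read of the duodenal factor Pdx1. The library labelled ileum 1003481 held 0.231 CPM of Fabp6 and 4.61 CPM of Pdx1, and the jejunal library 1003474 held 484 CPM of Fabp6. In whole small intestine, the Btnl2-KO library 964939 and the WT library 964950 held 95.6 and 82.7 CPM of Gata4. This factor of the proximal small intestine was at 15.1 CPM in the WT library 964952 and at or below 2.30 CPM in the rest. Fabp6 was at 431 CPM in 964939, 104.7 CPM in 964950 and 1174 CPM in 964952. In the rest of the small intestine libraries Fabp6 was at 1564 to 3985 CPM. In WT IECs it was at 0.348 to 6.58 CPM in the duodenum and at 586.1 and 579.7 CPM in the ileum. The labels of the tissue libraries name no segment of the small intestine. Two-site markers were also seen in 2 WT libraries, 964947 and 964948, which held 846 and 1624 CPM of the colonic gene Car1. Comparisons that include the libraries named here by number are also given without them, except for 964952. That library was left out only where each library was left out in turn. Nothing in the labels ties libraries to separate animals in IECs and tissue, so p-values measure only the spread between these libraries, and in bulk samples fewer cells of a type and less RNA per cell cannot be told apart.

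In the epithelium of WT mice, 5 of the 8 genes fell from duodenum to ileum and 1 rose: lactase, GLUT2, trehalase, GLUT5 and ketohexokinase were lower in the ileum, and maltase-glucoamylase was higher. Sucrase-isomaltase and SGLT1 did not pass the test. Across all genes, 6.59% of 13046 tested were called between these segments (2.38% lower and 4.21% higher in the ileum), where called means a Benjamini-Hochberg adjusted p (FDR) below 0.05 in edgeR's quasi-likelihood test and a fold above 1.5.

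**Figure D1:**
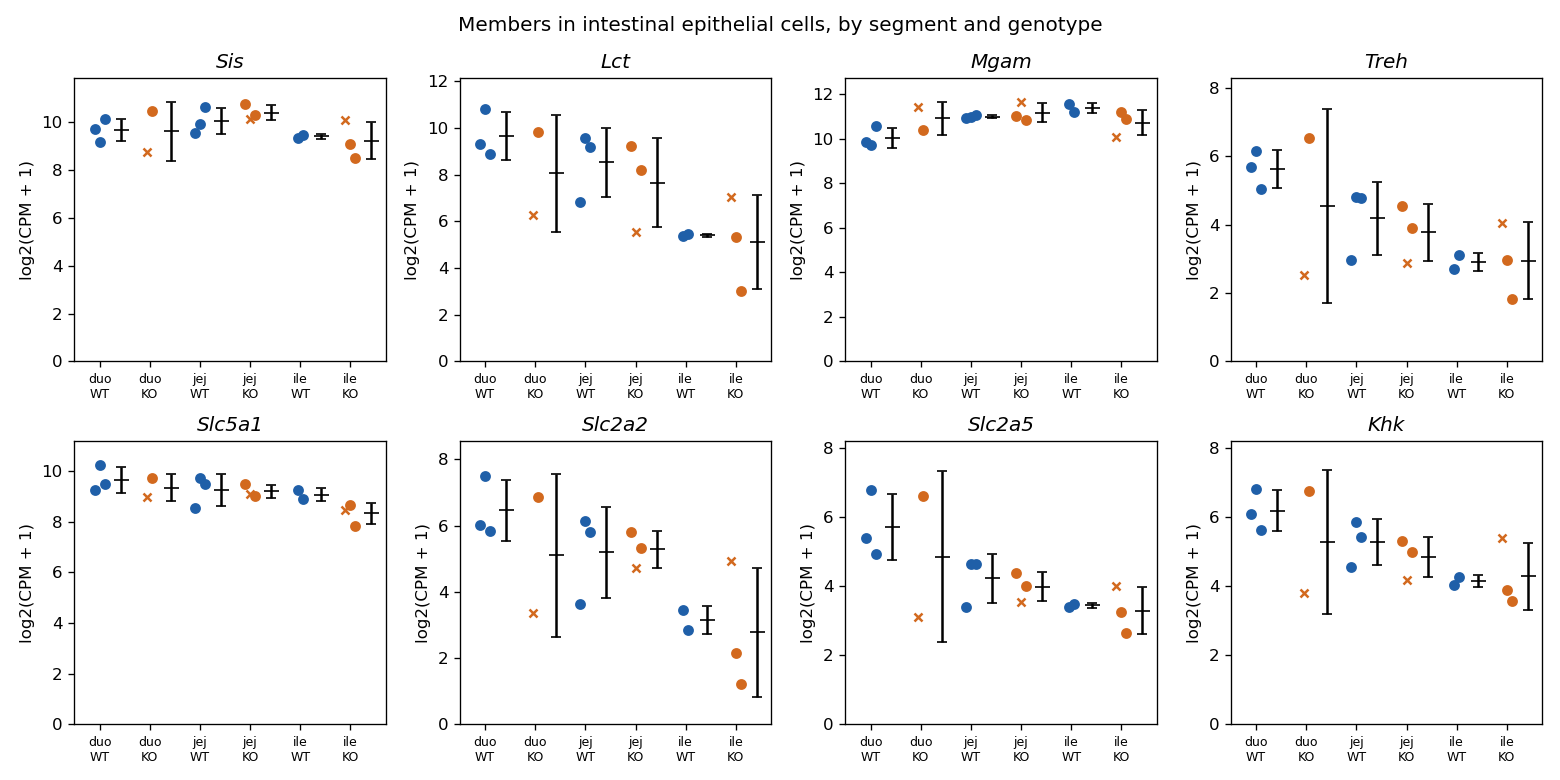
Levels of the 8 genes in IECs, log2(CPM + 1) on the vertical axis, by segment and genotype (WT blue, Btnl2-KO orange). Each point is a library, crosses are the Btnl2-KO libraries 1003459, 1003474 and 1003481, and black bars are the mean ± SD. The 2 WT ileal libraries lie below all 3 WT duodenal ones for Lct, Slc2a2, Treh, Slc2a5 and Khk (19.3% of all genes). They lie above them for Mgam (17.7% of all genes).

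Among the disaccharidases, Lct was at 639.8, 1833 and 469.9 CPM in the 3 WT duodenal libraries, at 113, 760.3 and 582 CPM in the jejunal ones and at 40.2 and 42.4 CPM in the 2 ileal ones. The ileum stood below every library of the other segments, as for 19.3% of genes against the duodenum and 10.6% against the jejunum, while duodenum and jejunum overlapped. Lct fell by 4.53 on the log2 scale from duodenum to ileum (SE 0.91, FDR 0.0191), the steepest of the 8. Treh was at 50.3, 69.6 and 32.1 CPM in the duodenum, 6.79, 26.9 and 26.4 CPM in the jejunum and 5.54 and 7.57 CPM in the ileum. The lowest jejunal library thus lay within the ileal range. Treh fell by 2.92 from duodenum to ileum (SE 0.60, FDR 0.021).

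Mgam ran the other way. It was at 921, 842 and 1503 CPM in the duodenum, 1924, 2007 and 2100 CPM in the jejunum and 2950 and 2351 CPM in the ileum, so that no segments overlapped, which 10.2% of genes showed in this direction between jejunum and duodenum and 11.5% between ileum and jejunum. Between ileum and duodenum 17.7% did. Mgam rose by 1.31 on the log2 scale from duodenum to ileum (SE 0.28, FDR 0.0248). Sis, whose enzyme shares its fold and part of its substrates with that of Mgam, was at 835, 576 and 1104 CPM in the duodenum, 748, 979 and 1566 CPM in the jejunum and 638 and 712 CPM in the ileum. These ranges overlapped between duodenum and ileum, and the difference was -0.29 on the log2 scale (95% interval -1.11 to 0.53).

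The transporters split likewise. Slc2a2, the basolateral exit for sugars, was at 63.9, 181 and 56.5 CPM in the duodenum, 11.4, 69.8 and 54.7 CPM in the jejunum and 9.88 and 6.22 CPM in the ileum, and fell by 3.60 from duodenum to ileum (SE 0.83, FDR 0.0336). Slc2a5, the fructose transporter, was at 41.4, 108.5 and 29.8 CPM, then 9.65, 24.1 and 23.9 CPM, then 9.59 and 10.3 CPM, and fell by 2.55 (SE 0.60, FDR 0.0363). For both genes every duodenal library lay above both ileal ones, as for 19.3% of all genes. Slc5a1, the glucose and galactose entry route, was at 603, 1191 and 719.5 CPM in the duodenum, 366, 844 and 717 CPM in the jejunum and 604 and 476 CPM in the ileum. Its segments overlapped, and the ileum differed from the duodenum by -0.60 on the log2 scale (95% interval -1.48 to 0.29). Khk, which acts on fructose after Slc2a5 has brought it in, was at 66.7, 112 and 48.6 CPM in the duodenum, 22.6, 56.9 and 41.6 CPM in the jejunum and 15.3 and 18.3 CPM in the ileum. It fell by 2.14 from duodenum to ileum (SE 0.45, FDR 0.0225), with no overlap between these segments (19.3% of genes).

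These calls rest on few libraries. Without the duodenal library 1003465, 1 of the 6 stayed called (3.92% of genes called), and without either ileal library, 1003488 or 1003491, which left the ileum with a single library, none did (1.83% and 2.76%). A fit of all 16 IEC libraries together, which takes its spread from the Btnl2-KO libraries too, called none of the 8 and 0% of genes, while DESeq2 and limma-voom each called 6 (10.2% and 12.6% of genes). The middle segment was not separated from its neighbours by edgeR: 0 of 8 members were called between jejunum and duodenum (0.767% of genes) and 0 between ileum and jejunum (0.644%), with 4 members at an unadjusted p below 0.05 in each, against 14.5% and 6.41% of genes. DESeq2 called 2 in each (3.27% and 2.19% of genes), and limma-voom 0 and 1 (1.6% and 1.98%).

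Per kilobase of the longest coding transcript, which puts genes on a common scale, the order of the WT IEC levels changed along the gut. In the duodenum Slc5a1 (204 ± 75.8 CPM per kb, SD, n = 3), Mgam (168 ± 55.7), Lct (159 ± 120.3) and Sis (141 ± 44.4) lay within their spread of one another, above Khk (47.9) and above Treh, Slc2a5 and Slc2a2 (24.7, 19.0 and 18.1). In the ileum Mgam led with 408.5 CPM per kb (n = 2), followed by Slc5a1 at 131.7 and Sis at 113.4, and the other 5 lay between 1.45 and 10.6. The Mgam to Sis ratio, taken per length within a library, was 1.01 to 1.34 in WT duodenum, 1.23 to 2.36 in jejunum and 3.03 to 4.24 in ileum.

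**Figure D2:**
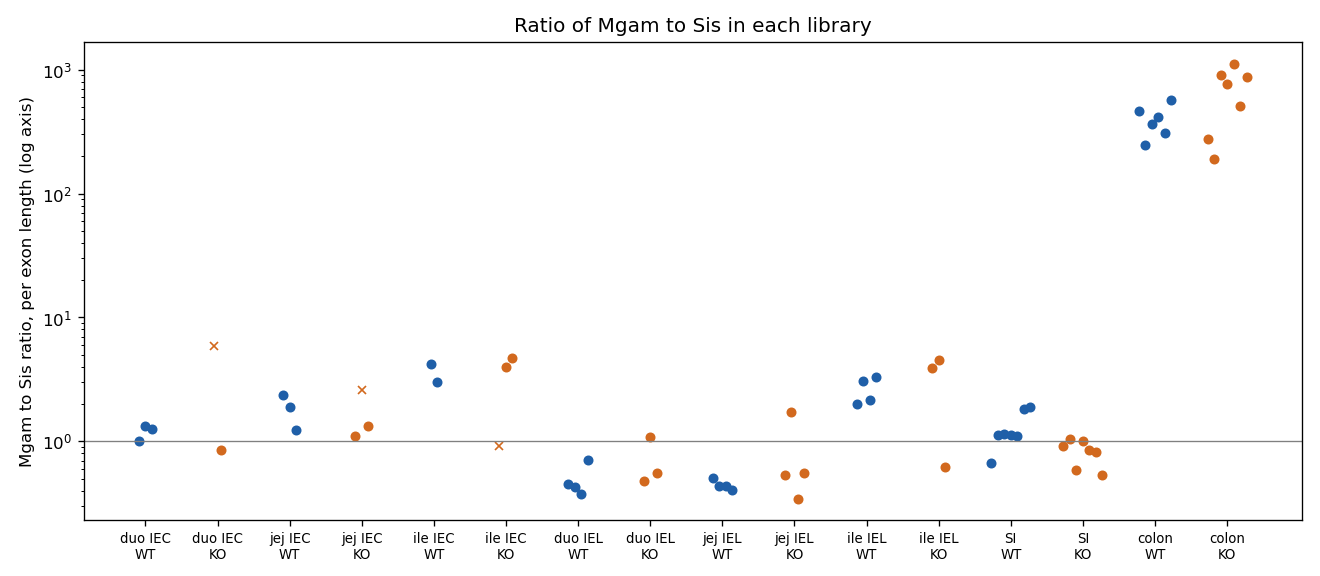
Ratio of Mgam to Sis, each per kilobase, in every library of the 3 tables (vertical axis, log scale; horizontal line at 1), by fraction, segment and genotype. Crosses mark the Btnl2-KO IEC libraries 1003459, 1003474 and 1003481, of which 1003459 (labelled duodenum) is at 5.93 and 1003481 (labelled ileum) at 0.926, the WT ileal libraries lie above the other WT segments within IECs and within IELs, and the colon lies between 188 and 1106.

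Genes that act beside the members were read from lists of the same pathway. Of 7 genes of fructose and triose metabolism, 2 were lower in WT ileum than in duodenum, among them the gluconeogenic enzyme Fbp1 (-2.03), and all 7 differences were negative. None of 5 galactose genes was called. Of 10 tested genes that phosphorylate glucose or stand at the ends of glycolysis and gluconeogenesis, 2 were higher, the hexokinases Hk1 (+1.61) and Hk2 (+1.26). Of 12 other sugar transporters tested, 2 were higher, Slc2a13 (+3.53) and Slc2a10 (+1.19). Of 14 transcription factors and sugar sensors tested, Gata4, the factor of the proximal small intestine, was lower (-2.45, FDR 0.000889) and the homeobox factor Cdx1 was higher (+0.97). Of 12 other brush border hydrolases, the peptidases Naaladl1 (+2.36) and Mep1a (+2.22) were higher and Mme (-3.46) was lower, and Tmprss15, the enteropeptidase that starts trypsin activation, was also called lower, with no read in either ileal library. The median difference was -2.35 over the 8 members and 0.01 over all genes tested. Among the 12 pan-epithelial markers, 1 was called, higher in the ileum.

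In Btnl2-KO IECs, with every library under its own label, none of the 8 members and none of 13012 genes was called between any pair of segments by edgeR (background 0%). At an unadjusted p below 0.05 there were 3 members between ileum and duodenum (4.86% of genes), 1 between ileum and jejunum (3.75%) and 0 between jejunum and duodenum (11.8%). DESeq2 called none and limma-voom called 5 between ileum and jejunum (8% of genes). The libraries of a labelled segment differed widely. Lct was at 917 CPM in duodenal library 1003464 and 76.4 CPM in 1003459, and at 129.8 CPM in ileal library 1003481 against 39.3 and 7.03 CPM in the other two. Treh was at 92.5 CPM in 1003464 and 4.78 CPM in 1003459, below the 15.6 CPM of 1003481. Slc2a5 was at 97.0 and 7.63 CPM in the same duodenal libraries, and Khk at 107.0 and 12.9 CPM. For Treh, Slc2a5 and Khk the library labelled duodenum 1003459 lay within the range of the ileal libraries 1003484 and 1003485, for Lct above it, and for all 4 genes it lay below 1003481.

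Leaving out the 3 libraries whose markers went against their labels left 1 duodenal, 2 jejunal and 2 ileal Btnl2-KO libraries. There 7 members were called between ileum and duodenum (16.2% of genes), 4 between jejunum and duodenum (14%) and 6 between ileum and jejunum (9.97%). Without 1003459 and 1003481 alone, 4 were called between ileum and duodenum (2.43% of genes). These fits assume that the lone duodenal library varies like the others. The choice of libraries uses Fabp6, Pdx1 and Btnl2 and none of the members.

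Between Btnl2-KO and WT IECs of the same labelled segment, no member was called in the duodenum (log2 differences from -0.97 to 0.93), the jejunum (-0.61 to 0.30) or the ileum (-0.71 to 0.53). The background was 0% of genes in duodenum and jejunum and 0.00774% in the ileum. An unadjusted p below 0.05 was found for 1.22%, 8.4% and 2.07% of genes in the 3 segments. Slc5a1 had the only one among the members, in the ileum, with 355, 402.8 and 227.8 CPM in Btnl2-KO against 604 and 476 CPM in WT, which do not overlap (9.84% of genes), and a difference of -0.71 (95% interval -1.39 to -0.03, FDR 0.90). The intervals were wide, that of Lct in the ileum running from -1.97 to 3.02. The interaction of genotype and segment called no member and 0% of genes with edgeR, and no member with DESeq2 or limma-voom. At an unadjusted p below 0.05 it held 0 members for the jejunum (6.13% of genes) and 1 for the ileum (2.79%). Without 1003459, 1003474 and 1003481, no member was called either, with differences from -0.09 to 0.87 in the duodenum (1 Btnl2-KO library), -0.20 to 0.44 in the jejunum and -1.78 to -0.33 in the ileum. In the ileum 4 members then had an unadjusted p below 0.05 (4% of genes), namely Slc2a2, Sis, Slc5a1 and Khk, all at FDR 0.855. Slc2a2 was at 29.8 CPM in 1003481, at 3.44 and 1.35 CPM in the other Btnl2-KO ileal libraries and at 9.88 and 6.22 CPM in WT, so its difference moved from 0.52 to -1.78 (SE 0.45). That of Slc5a1 was -0.78 (SE 0.28) without 1003481. The interactions called no member and 0% of genes without these libraries.

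In whole tissue the colon held far less of the set than the small intestine. Most of these small intestine libraries held high Fabp6 and low Gata4, so the colon is compared mainly with tissue of ileal marker levels. In WT mice all 6 members that passed the filter on low counts were lower in the colon, against 15.6% of 15162 genes (27.6% in either direction). In Btnl2-KO mice the same 6 were lower, against 15.7% of 14798 genes (30.2% in either direction). Lct and Slc2a2 did not pass that filter in either genotype. Without 964939 and 964950, 6 members were called in WT (26.5% of genes) and 6 in Btnl2-KO (29.9%), and without 964947 and 964948, 6 in WT (29.1%).

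**Figure D3:**
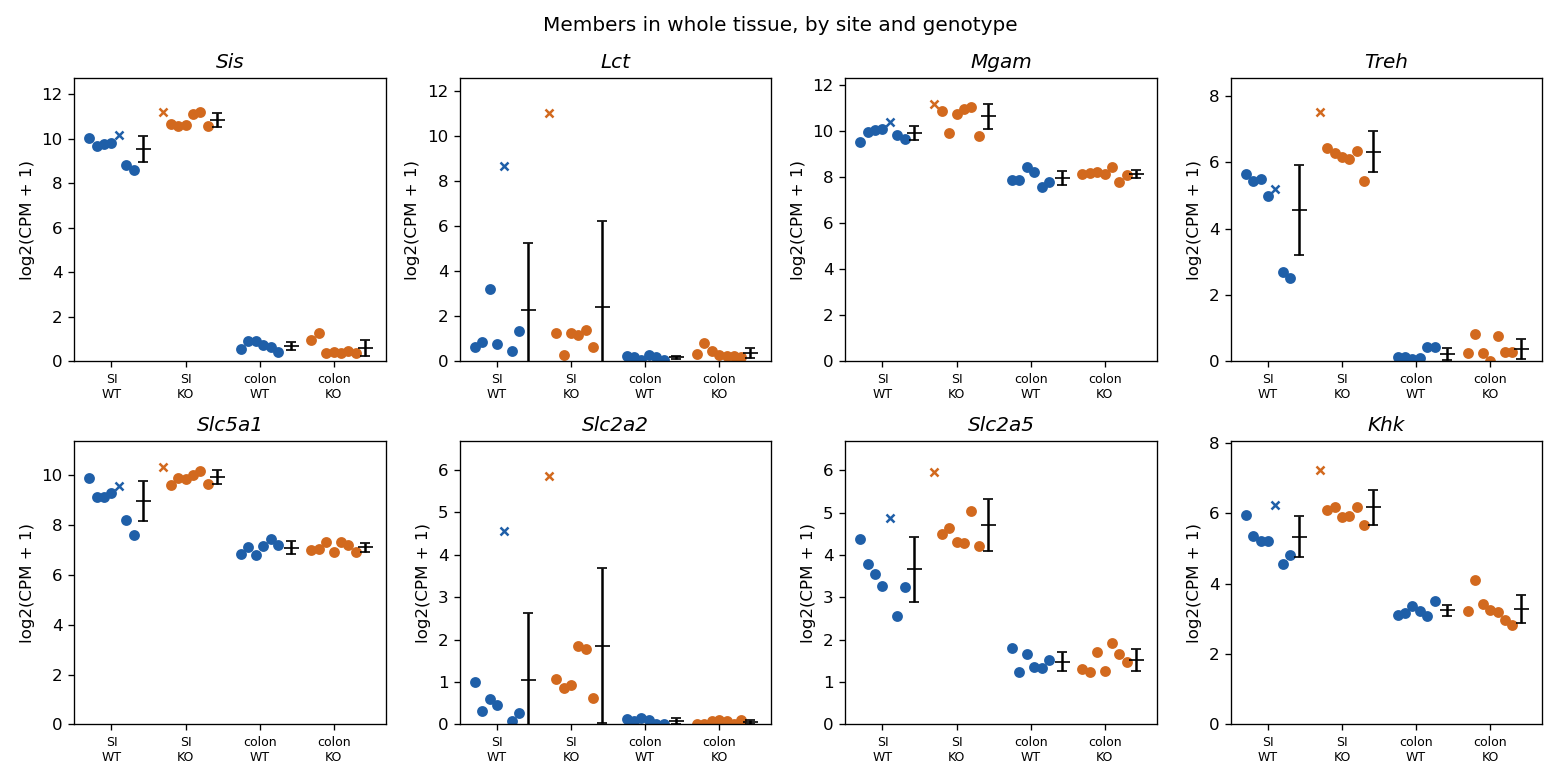
Levels of the 8 genes in whole small intestine (SI) and colon, log2(CPM + 1), by genotype (WT blue, Btnl2-KO orange). Each point is a library, crosses are the small intestine libraries 964939 and 964950, and black bars are the mean ± SD, cut at 0. Sis and Treh lie near 0 in the colon, Mgam and Slc5a1 do not, and Lct is high in only the 2 libraries marked by crosses.

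Sis differed most. It was at 0.361 to 0.878 CPM in WT colon (median 0.617) and at 387 to 1148 CPM in WT small intestine (median 866), and was lower by 10.3 log2 units in the colon (log2 difference -10.31, SE 0.38, FDR 7.83e-11). Treh was at 0.0585 to 0.361 CPM in WT colon and at 4.74 to 49.1 CPM in small intestine (median 35.5), a log2 difference of -7.37 (SE 0.76, FDR 2.18e-06). Both genes were close to the detection limit in every colon library, with at most 21 counts for Sis and 12 for Treh. Lct was at 0.0585 to 0.201 CPM in WT colon (1 to 4 counts) and had a median of 0.804 CPM in WT small intestine. Mgam alone of the disaccharidases kept a clear level in the colon. It was at 189.8 to 347.9 CPM in WT colon (median 236.1) and 750.4 to 1376 CPM in small intestine (median 993), a log2 difference of -1.99 (SE 0.17, FDR 3.96e-07).

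Of the transporters, Slc5a1 was also kept at 110.2 to 173.5 CPM in WT colon (median 140.1) against 193 to 944 CPM in small intestine (median 559), a log2 difference of -2.05 (SE 0.31, FDR 7.77e-05). Slc2a5 was at 1.35 to 2.49 CPM against 4.89 to 28.3 CPM (-2.89, SE 0.37, FDR 2.17e-05). Khk was at 7.43 to 10.4 CPM against 22.6 to 73.4 CPM (-2.34, SE 0.25, FDR 3.58e-06). None of these 6 genes overlapped between the tissues, where 10.8% of genes lay wholly lower in the colon. The Mgam to Sis ratio per length was 0.664 to 1.91 in WT small intestine and 248 to 565 in WT colon.

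Differences of the same direction were found relative to the other epithelial genes. Against the summed CPM of 12 pan-epithelial markers, which was 10270 to 19750 in WT small intestine and 11460 to 13210 in WT colon, the log2 difference between colon and small intestine was -10.04 for Sis, -7.16 for Treh, -4.15 for Lct, -2.46 for Slc2a5, -1.98 for Khk, -1.73 for Mgam and -1.64 for Slc5a1. Two-sided exact permutation tests gave FDRs of 0.00544 to 0.00881 over all 14922 genes, of which 37.4% passed. The smallest p this design allows is 0.000583. Lct, with the highest of these FDRs, had 1 to 4 counts in the WT colon libraries. It entered as a member, without the minimum of 10 counts that other genes had to meet. The value of Lct was -2.89 without 964939 and 964950. Slc2a2 had colon libraries at 0 and was not tested. In Btnl2-KO mice the log2 differences in CPM were -11.69 for Sis, -8.09 for Treh, -3.86 for Slc2a5, -3.06 for Khk, -2.85 for Slc5a1 and -2.58 for Mgam.

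All 11 of the other brush border hydrolases tested were lower in WT colon, led by Anpep (-7.67), Ggt1 (-6.61), Enpep (-6.26) and Alpi (-6.16). Among 7 genes of fructose and triose metabolism, 4 were lower, among them Tkfc (-3.02), which phosphorylates the glyceraldehyde made from fructose, Fbp1 (-2.97) and Glyctk (-1.58), and 1 was higher. Of 14 other sugar transporters tested, 6 were lower, led by the close paralogs Slc5a4a (-6.04) and Slc5a4b (-4.99), whose reads may be shared, by Slc5a11 (-6.00) and by Slc2a9 (-2.03), and 4 were higher. Of 12 glucose genes tested, 5 were higher, among them Pck1 (+2.19), Hk1 (+2.03) and Hk2 (+1.64), and 4 were lower, of which G6pc had no read in any WT colon library. Of 14 transcription factors and sugar sensors tested, Gata5 (-6.94), Hnf4g (-2.32) and Mlxipl (-1.85), the last of which encodes the sugar-responsive factor ChREBP, were the 3 that fell most of 5 lower, and 4 were higher. None of the 5 galactose genes was called.

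In whole small intestine all 8 members had a higher mean in Btnl2-KO than in WT, and none was called by edgeR, where 0.0202% of 14866 genes were (3 genes). At an unadjusted p below 0.05 there were 6 members, and 3415 genes in all (23% of those tested). Sis was at 1509 to 2385 CPM in the 7 Btnl2-KO libraries (median 1630) and at 387 to 1148 CPM in the 7 WT libraries (median 866), with no overlap, which 0.733% of all genes also showed in this direction. Its log2 difference was 1.22 (95% interval 0.72 to 1.72, FDR 0.0942). Treh was at 42.3 to 181.7 CPM (median 76.5) against 4.74 to 49.1 CPM (median 35.5), and its log2 difference was 1.49 (0.47 to 2.51, FDR 0.128). The lowest Btnl2-KO library of Treh lay below the highest WT one.

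**Figure D4:**
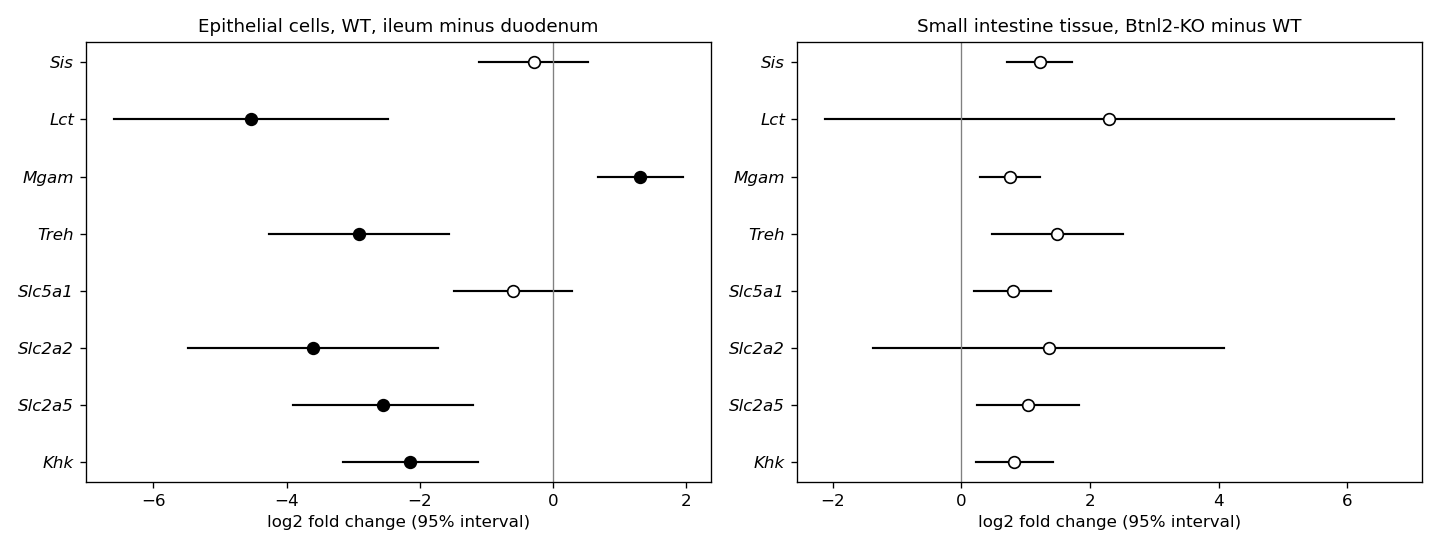
Log2 fold changes of the 8 genes with 95% intervals, on the left between ileum and duodenum in WT IECs and on the right between Btnl2-KO and WT whole small intestine. Filled circles passed the test (6 on the left, none on the right), and the 8 estimates on the right are all above 0, with intervals of Lct and Slc2a2 that reach below it.

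The other members overlapped between genotypes too. Mgam was at 882 to 2369 CPM (median 1873) in Btnl2-KO and 750.4 to 1376 CPM (median 993) in WT, a difference of 0.76 (0.30 to 1.22). Slc5a1 was at 782 to 1289 CPM (median 931) against 193 to 944 CPM (median 559), a difference of 0.80 (0.20 to 1.40). Khk was at 49.6 to 148.3 CPM (median 67.4) against 22.6 to 73.4 CPM (median 36.0), a difference of 0.82 (0.22 to 1.42). Slc2a5 was at 17.7 to 61.0 CPM (median 21.8) against 4.89 to 28.3 CPM (median 10.7), a difference of 1.04 (0.24 to 1.83). The FDRs of these 4 lay between 0.115 and 0.145.

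The means of Lct and Slc2a2 were set by one library of each genotype. Lct was at 0.225 to 1.62 CPM in 6 of the Btnl2-KO libraries and at 2036 CPM in 964939, and at 0.389 to 8.17 CPM in 6 of the WT libraries and at 402 CPM in 964950. Slc2a2 was at 57.0 CPM in 964939 and 22.7 CPM in 964950, and elsewhere at 0.543 to 2.58 CPM in Btnl2-KO and 0.0556 to 1.02 CPM in WT. Both of these libraries stood apart in Gata4 as well. Without 964939 the difference of Lct between Btnl2-KO and WT turned from 2.30 to -5.73, and that of Slc2a2 from 1.36 to -1.34. Without both libraries that of Lct was -0.90 (SE 0.73) and that of Slc2a2 1.83 (SE 0.53, FDR 0.261), so that Slc2a2 was higher in Btnl2-KO in the remaining libraries too, with overlapping ranges. No member was called there, and 7 had an unadjusted p below 0.05 (15.7% of genes).

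Whether the set was called between genotypes in the small intestine depended on the method. DESeq2 called 6 members (1.19% of genes) and a fit of all 27 tissue libraries called 6 (1.41%). The limma-voom fit called 2 (0.343%), and edgeR without the Car1-holding libraries 964947 and 964948 called 1, Sis (FDR 0.0344, with 2.16% of genes called). The median difference was 1.13 over the 8 members and -0.03 over all genes tested. The other brush border hydrolases had 11 of 11 differences positive, with a median of 0.90 and none called. Summed pan-epithelial markers were at 15240 to 20300 CPM in Btnl2-KO and 10270 to 19750 CPM in WT, with none of the 12 at 0, and 5 smooth muscle markers at 2876 to 7322 CPM and 3557 to 9350 CPM. The 4 ileal markers all had positive differences too, and none was called. Relative to the pan-epithelial sum the log2 difference was 0.99 for Sis (p = 0.00233, FDR 0.0994), 1.52 for Treh (p = 0.00117, FDR 0.0953) and 0.65 for Slc5a1 (p = 0.0140, FDR 0.112) by two-sided exact permutation tests. No gene of 14803 passed that test after adjustment and 33.4% had an unadjusted p below 0.05. Without 964947 and 964948, Sis (FDR 0.0462) and Treh (FDR 0.0407) passed it, among 1944 of 14893 genes (13.1%), and 45.6% of genes had an unadjusted p below 0.05. Without 964939 and 964950 no gene passed it and 16.9% had such a p. Sis and Treh were there at the smallest p that 6 against 6 libraries allow (exact p = 0.00217, FDR 0.210). An FDR below 0.05 thus needed many genes tied at that p. The ratio of Slc2a2 was higher by 1.79 in Btnl2-KO (exact p = 0.0108, FDR 0.258). The part that cell makeup has in these differences was not tested further.

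In the colon the 5 members tested differed between genotypes by -0.17 to 0.15 on the log2 scale, with 0.0269% of all genes called, and none was called by edgeR, DESeq2 or limma-voom or had an unadjusted p below 0.05 (4.14% of genes). Slc5a1, for example, was at 118.8 to 159.5 CPM in Btnl2-KO colon and 110.2 to 173.5 CPM in WT colon. The differences of the genotype effect between colon and small intestine ran from -1.89 to -0.59 over the members tested, and none was called by edgeR (0.0193% of genes), DESeq2 or limma-voom, with 3 at an unadjusted p below 0.05 (12.9% of genes). None was called without 964939 and 964950 or without 964947 and 964948 either.

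Sorted γδ IELs hold no brush border, and most members were read there at low levels beside other epithelial genes. The T cell gene Cd3e was at 846 to 1923 CPM in these libraries and at most at 21.8 CPM in IECs, and the epithelial gene Epcam was at 123 to 957 CPM in IELs and 623 to 1077 CPM in IECs. The summed CPM of the 12 pan-epithelial markers was 2050 to 9223 in WT and 604.7 to 5829 in Btnl2-KO IEL libraries. As a share of that sum, Sis was at 0.225 to 1.73% in WT IELs against 3.97 to 13.5% in WT IECs. In the Btnl2-KO jejunal library 1105592, which had the lowest pan-epithelial sum, Sis was at 0.383 CPM and Mgam at 0.727 CPM. The part that epithelial RNA has in the levels of the IEL libraries was not tested, apart from a fit with a pan-epithelial covariate. That covariate was the mean log2 CPM of the 12 markers.

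In WT IELs, too, Lct, Slc2a2, Treh and Khk were lower in the ileum than in the duodenum. Lct was at 37.9, 19.3, 8.61 and 12.3 CPM in the 4 WT duodenal libraries, 6.75, 21.3, 7.00 and 31.8 CPM in the jejunal ones and 0.358, 0.358, 0.267 and 0 CPM in the ileal ones. The ileum stood below both other segments, as for 3.45% of genes against the duodenum and 18.4% against the jejunum. Lct fell by 6.30 on the log2 scale from duodenum to ileum (SE 0.79, FDR 0.000523). Slc2a2 had no read in any of the 4 ileal libraries, against 3.06 to 6.60 CPM in the duodenum and 1.53 to 6.96 CPM in the jejunum. With a floor of 3 counts per library, its mean was at least 25-fold lower in the ileum than in the duodenum and at least 17.4-fold lower than in the jejunum. Treh was at 4.07 to 12.4 CPM in the duodenum, 1.35 to 6.40 CPM in the jejunum and 0.226 to 1.36 CPM in the ileum, and fell by 3.50 from duodenum to ileum (SE 0.63, FDR 0.00862). Mgam was at 16.7, 26.3, 30.0 and 42.0 CPM in the duodenum and 30.0, 56.6, 96.9 and 128.8 CPM in the ileum, a difference of 1.45 (0.47 to 2.43, FDR 0.152).

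In all, 4 of 8 members were called between ileum and duodenum of WT IELs (Lct, Slc2a2, Treh and Khk, all lower), against 2.11% of 12899 genes. Between ileum and jejunum 4 were called, Lct, Slc2a2 and Treh lower and Mgam higher (1.87, SE 0.46, FDR 0.00977), but 21.9% of all genes were called there. Between jejunum and duodenum 1 was called, Khk, against 22.5% of all genes, and 2 were without the library 1105596 (24.3% of genes). With the pan-epithelial covariate, 7, 7 and 2 members were called in these comparisons, against 4.27%, 12.6% and 23.3% of genes. The Mgam to Sis ratio per length was 0.376 to 0.71 in WT duodenal IEL libraries, 0.404 to 0.510 in jejunal ones and 2.02 to 3.33 in ileal ones.

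Khk is described apart, since its level in IELs was near that in IECs. It was at 52.5, 87.7, 99.0 and 153.8 CPM in the 4 WT duodenal libraries, 24.0, 27.2, 39.2 and 44.9 CPM in the jejunal ones and 23.0, 26.4, 32.7 and 36.2 CPM in the ileal ones. The duodenum lay above both other segments with no overlap (16.4% of genes against the jejunum and 3.45% against the ileum). Khk fell by 1.55 to the jejunum (SE 0.28, FDR 0.0025) and by 1.72 to the ileum (SE 0.29, FDR 0.00545). In WT duodenal IECs it was at 48.6 to 112 CPM. As a share of the pan-epithelial sum it was at 1.40 to 2.89% in WT duodenal IELs and at 0.457 to 0.772% in WT duodenal IECs. Library 1105592, with 0.383 CPM of Sis, still held 19.2 CPM of Khk. The tables were normalized separately, so levels are set side by side and were not tested across them.

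**Figure D5:**
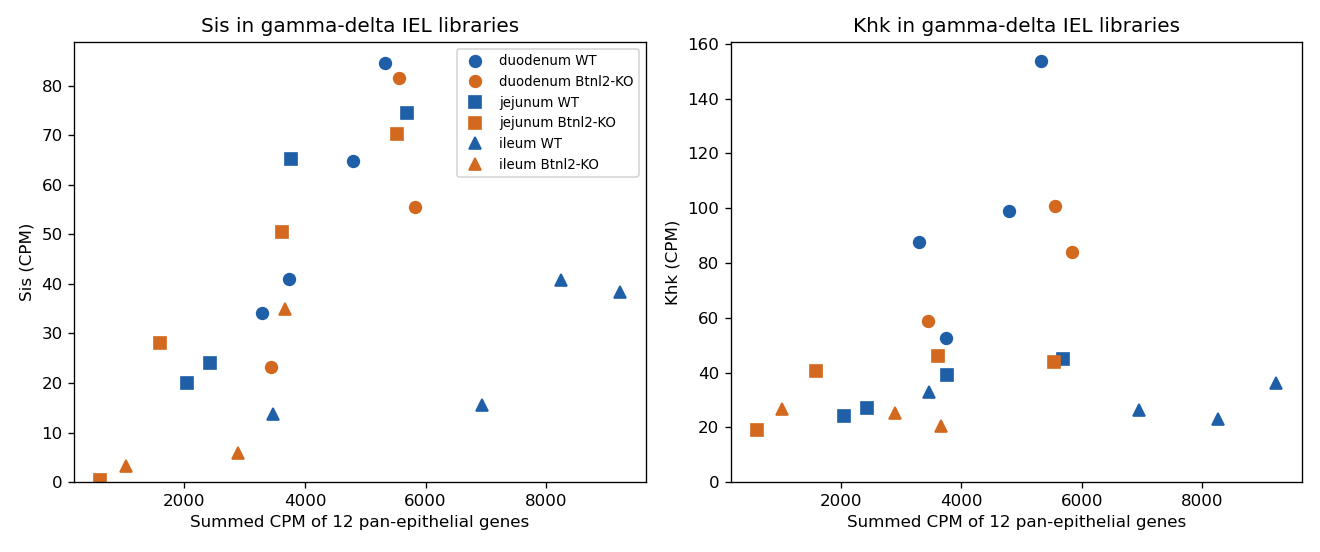
Sis (left) and Khk (right), in CPM on the vertical axis, against the summed CPM of 12 pan-epithelial markers in the 22 γδ IEL libraries (WT blue, Btnl2-KO orange, with circles for duodenum, squares for jejunum and triangles for ileum). At the lowest sum, 604.7 CPM, Sis is at 0.383 CPM and Khk at 19.2 CPM, and the 4 WT duodenal libraries hold 52.5 to 153.8 CPM of Khk.

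Between Btnl2-KO and WT IELs no member was called by edgeR in duodenum, jejunum or ileum, where 0.00789%, 0.00794% and 0% of genes were. The log2 differences ran from -0.27 to 0.69, from -0.82 to 0.18 and, over the 6 members tested in the ileum, from -1.83 to -0.27. An unadjusted p below 0.05 was found for 2.07%, 6.39% and 8.79% of genes. Mgam in the ileum had the only one among the members, and was at 25.3, 15.6 and 23.8 CPM in Btnl2-KO against 30.0, 56.6, 96.9 and 128.8 CPM in WT, which do not overlap (4.1% of genes), with a difference of -1.83 (95% interval -2.80 to -0.86, FDR 0.432). DESeq2 called 1 member there (1.75% of genes) and limma-voom 2 (9.58%), and edgeR called 1 without the WT library 1105587 (0.48%). The pan-epithelial sum was lower in the same comparison, at 1025 to 3669 CPM in Btnl2-KO and 3464 to 9223 CPM in WT, and Mgam as a share of that sum was at 0.648 to 1.53% in Btnl2-KO and 0.816 to 1.40% in WT. Within Btnl2-KO IELs no member was called between segments by edgeR, where 0.00775% of genes were between ileum and duodenum and 0% otherwise. There were 5 members at an unadjusted p below 0.05 between ileum and duodenum (6.76% of genes), 1 between jejunum and duodenum (7.53%) and 1 between ileum and jejunum (2.87%), and DESeq2 called 2 (1.06% of genes) and limma-voom 1 (0.434%) between ileum and duodenum. The interaction of genotype and segment called no member by any of these tools, with 0 members at an unadjusted p below 0.05, against 4.84% of genes for the jejunum and 5.73% for the ileum.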

How the data were processed

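The authors mapped the reads of each library to a customized mouse genome with ArrayStudio and deposited RSEM expected counts per gene, and the submitters' processing notes name build GRCm38. The labels name a stranded mRNA kit, and the methods name another. Expected counts were rounded. Contrasts between genotypes or between tissues were fitted by edgeR 4.0.16 (R 4.3.3) in the libraries of their 2 groups. Contrasts between segments were fitted in the libraries of all segments of that genotype, which share one estimate of the spread. Interactions were fitted in the 4 tissue groups, in all IEC groups or in all IEL groups. The fits used TMM scaling and a minimum of 10 counts in at least n libraries, n being the size of the smallest group fitted. Quasi-likelihood p-values were adjusted by Benjamini-Hochberg over all genes. DESeq2 1.42.0 and limma 3.58.1 (voom) were alternatives. Genes were called at FDR below 0.05 and a fold above 1.5. Ratios to the pan-epithelial sum were tested by exact permutation, adjusted over all genes and not over the members as first planned. Members entered those tests with a count in every library, and other genes also needed the minimum of 10 counts. The scripts were tested on simulated counts. Of 24475 identifiers, 100 had no symbol (0.253 to 9.24% of a library's counts). They were kept in the tests and in the shares over all genes. In the IEL data 1 column matched no sample and was not used. No pair of replicate libraries was alike within sampling noise. From each gene list, up to 4 called genes with the largest fold change were named, and 1 gene is not reported here. Promoters came from RefSeq. The members and lists were chosen with earlier results of these data known.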

Additional observations from a re-analysis of the deposited data

Results flagged for a closer look

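In groups of 4 to 10 libraries, 64 combinations of member and group were examined for a single library far from the rest, by the gap to its neighbour over the whole range, and 8 stood out, where chance alone gives about 1 in 20. Of these, 5 came from 2 libraries of whole small intestine. The Btnl2-KO library 964939 had the highest Lct (2036 CPM, next 1.62 CPM), Slc2a2 (57.0 CPM, next 2.58 CPM) and Khk (148.3 CPM, next 71.4 CPM). The WT library 964950 had the highest Lct (402.4 CPM, next 8.17 CPM) and Slc2a2 (22.7 CPM, next 1.02 CPM). The same 2 libraries held the most Gata4 of the 14, and what sets them apart was not tested.

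In the colon, Lct was highest in the Btnl2-KO library 964926, at 0.756 CPM with the next at 0.365 CPM, a level of at most 9 counts. In IELs, Slc5a1 was lowest in the WT ileal library 1105587, at 20.1 CPM with the next at 44.1 CPM, and Khk was lowest in the Btnl2-KO jejunal library 1105592, at 19.2 CPM with the next at 40.5 CPM.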

How the results depend on the processing

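Of 1001 recomputed log2 fold changes of single members, 925 kept their direction and their side of the threshold, 29 lost a call, 36 gained one and 11 changed sign, none of them among called values. Counts of members called moved by over 1.5 times in 29 of 234 recomputations that left no single library out. DESeq2 called 2 between jejunum and duodenum (3.27% of genes) and 2 between ileum and jejunum (2.19%) of WT IECs. It called 2 between jejunum and duodenum of WT IELs (23.8%) and 2 between ileum and duodenum of Btnl2-KO IELs (1.06%). Between genotypes it called 6 in small intestine (1.19%) and 1 in ileal IELs (1.75%). With limma-voom 1 was called between ileum and jejunum of WT IECs (1.98% of genes) and 4 between jejunum and duodenum of WT IELs (27.8%). Between genotypes limma-voom called 2 in small intestine (0.343%) and 2 in ileal IELs (9.58%). In Btnl2-KO IECs it called 5 between ileum and jejunum (8%). In Btnl2-KO IELs it called 1 between ileum and duodenum (0.434%) and 1 between jejunum and duodenum (1.81%). One fit of all libraries of a table called 0 between ileum and duodenum of WT IECs (0% of genes). Such a fit called 2 between ileum and jejunum of WT IELs (10.7%) and 2 between ileum and duodenum of Btnl2-KO IELs (0.651%). It called 6 between genotypes in small intestine (1.41%). The pan-epithelial covariate gave 2, 7 and 7 in WT IELs (23.3%, 4.27% and 12.6% of genes). It gave 2 between ileum and duodenum of Btnl2-KO IELs (0.798%). Alternatives chosen after seeing the data left out libraries that stood apart. Without 1003459, 1003474 and 1003481, or without 1003459 and 1003481 alone (planned), Btnl2-KO IECs held 1 duodenal library. Counts moved there too, as described above for Btnl2-KO IECs. Without 964947 and 964948, small intestine gave 1 call between genotypes (2.16% of genes) and 2 relative to the pan-epithelial sum (13.1%).

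Leaving out each library in turn moved 6 of 245 counts. The range was 0 to 6 for ileum and duodenum and 0 to 1 for ileum and jejunum of WT IECs (1 without 1003476), 1 to 2 for jejunum and duodenum of WT IELs and 0 to 1 for genotypes in ileal IELs.

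Sign changes were those of Lct between genotypes in small intestine (DESeq2 -0.77, limma-voom -0.12, without 964939 and 964950 -0.90, and -5.73 to 7.16 as single libraries were left out) and of Slc2a2 there (-1.34 to 4.54). In WT IELs between jejunum and duodenum, Lct changed to 0.10 with the covariate and ran from -0.75 to 0.30 as single libraries were left out, and Slc5a1 changed to -0.00906 with limma-voom and ran from -0.015 to 0.59. The cause of these changes was not tested. No paired analysis was possible because the groups compared share no replicate numbers, although IEL libraries of different segments share mice. The IEC groups held 2 or 3 libraries each, which limits those comparisons, and Sis, Treh, Lct and Slc2a2 in the colon are near the limit of a few counts.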

Other observations

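Over all 16 IEC libraries, which share segments, genotypes and the libraries that went against their labels, Treh and Khk had the closest levels of any pair of members (Pearson's r = 0.981 of log2(CPM + 1)), followed by Treh and Slc2a5 (0.971) and Slc2a5 and Khk (0.962). Lct was closest to Slc2a2 (0.952). Mgam had a negative r with each of the other 7, from -0.778 with Khk to -0.108 with Sis.

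Among 13344 genes, those among the most like each member over these libraries were Cyp2d26 (0.988) and Ephx2 for Khk, Cyp2d26 (0.992) and Khk for Treh, Cyp2d22 (0.98), Acaa1b and Treh for Slc2a5, Slc43a2 (0.978), Cyp4f14 and Gpat3 for Slc5a1, Slc16a10 (0.973), Dnase1 and Plpp1 for Lct, Efr3b (0.973), Apoa4 and Fabp1 for Slc2a2, Ahnak (0.964), Pde4d and Slc26a2 for Mgam, and Clca4b (0.918), Dpp4 and Ppargc1a for Sis. Slc16a10 and Slc43a2 are amino acid transporters. Slc26a2 is a sulfate transporter, and Apoa4 and Fabp1 serve fat absorption. These values describe likeness across libraries and carry no p.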
